A study of Mus musculus with 6 samples.

Results

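The mu-class glutathione transferase genes Gstm1, Gstm2, Gstm4, Gstm5, Gstm6 and Gstm7 were followed on 6 arrays. The cells were V6.5, an established line of mouse embryonic stem cells. The 6 genes were selected by gene symbol from 19938 genes that had a probe set of their own, with their dox changes and levels in these arrays already known, so those values describe the genes and do not test them. Gstm3, a further mu-class gene that was not among the 6, is shown beside them. The cells carried a doxycycline (dox)-inducible short hairpin RNA. In the cells labelled shRNA1 or shRNA2 (hairpin 1 and hairpin 2) the hairpin targeted Pcgf6, a polycomb group RING finger gene, and cells labelled Scrambled carried a scrambled hairpin. Each line was measured on 1 array with dox at 1 µg/ml and on 1 array without dox, which gives 2 induced Pcgf6-hairpin arrays, 2 uninduced Pcgf6-hairpin arrays, 1 induced scrambled array and 1 uninduced scrambled array. All lines were grown on inactivated mouse embryo fibroblasts, so every array can hold feeder RNA, and in such bulk samples fewer cells of a type and less RNA per cell cannot be told apart. The labels do not say whether the arrays came from separate cultures or the lines from single clones.

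Glutathione transferases join the tripeptide glutathione to reactive, electrophilic compounds, which makes those compounds more soluble and easier to export. The mu class is one of several cytosolic classes, works as pairs of subunits, and in mammals is encoded by a compact cluster of closely related genes. Many of these genes can be induced through NRF2, the transcription factor of the response to oxidative and electrophilic stress. Gstm1 encodes a main mu-class subunit of mouse liver. Mouse Gstm5 is the counterpart of a human gene that is best known from testis and brain. PCGF6 belongs to a repressive complex that contains the DNA-binding proteins MGA, MAX and E2F6.

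Every one of the 6 genes was read by a single probe set whose annotation lists 1 symbol, and 0 probe sets listed several symbols with a mu-class gene among them. The copies resemble each other closely, and how far the probes of one copy read RNA of another was not tested, so values of single copies are uncertain to that extent. The mouse genes all lie on chromosome 3. In the RefSeq annotation of GRCm38.p6 their order is Gstm5, Gstm7, Gstm6, Gstm3, Gstm2, Gstm1 and Gstm4, with only pseudogenes annotated between them. Gstm5 stands at one end and is read on the plus strand, and the 6 others are read on the minus strand. From the start of Gstm5 the starts of the others lie 36.0 kb (Gstm7) to 149.0 kb (Gstm4) away.

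The 250 bases before the transcription start of 3 genes are shown because they stand for the responses described below: Gstm5, which was higher with dox in both Pcgf6-hairpin lines, Gstm3, which was also higher in both, and Gstm4, which differed little. They were taken from RefSeq, GRCm38.p6, at chr3:107895604-107895853 on the plus strand, chr3:107969175-107969424 on the minus strand and chr3:108044860-108045109 on the minus strand, and each is written 5′ to 3′ as its gene is read. Capitals mark matches, on either strand, to the NRF2 core element TGACNNNGC in Gstm5 and to the E2F6-type site TCCCGC in Gstm3 and Gstm4.
Gstm5: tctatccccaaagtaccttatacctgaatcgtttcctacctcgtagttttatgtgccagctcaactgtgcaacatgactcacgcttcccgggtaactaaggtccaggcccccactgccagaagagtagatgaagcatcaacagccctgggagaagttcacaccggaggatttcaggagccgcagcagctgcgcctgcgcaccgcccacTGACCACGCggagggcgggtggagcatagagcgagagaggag
Gstm3: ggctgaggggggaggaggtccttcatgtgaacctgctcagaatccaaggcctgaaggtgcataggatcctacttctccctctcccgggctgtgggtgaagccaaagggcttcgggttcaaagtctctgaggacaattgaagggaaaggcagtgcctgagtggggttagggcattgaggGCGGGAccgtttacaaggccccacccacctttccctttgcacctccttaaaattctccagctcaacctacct
Gstm4: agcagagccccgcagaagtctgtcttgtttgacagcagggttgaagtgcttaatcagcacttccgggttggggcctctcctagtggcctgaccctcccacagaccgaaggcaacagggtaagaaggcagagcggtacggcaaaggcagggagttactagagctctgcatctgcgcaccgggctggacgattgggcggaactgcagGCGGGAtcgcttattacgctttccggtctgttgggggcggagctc

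All 7 genes had promoter windows in the RefSeq table, 12 windows in all, which run from 250 bases before to 50 bases after a start. The NRF2 core element was found in 2 of the 7 genes, 42 bases before the start of Gstm5 and 129 bases before a start of Gstm7. Over all genes in the table, 14.0% held it. The E2F6-type site was found in 5 of the 7 genes, all but Gstm5 and Gstm7, and 22.0% of all genes held it. The E-box CACGTG, a site of MAX-containing dimers, was found in 0 of the 7, against 8.09% of all genes. The Gstm5 window held 18 CG pairs, more than the 3 to 14 in the windows of the other mu-class genes and the median of 7 over all windows. These matches describe letters only, and the copies share ancestry, so they are not independent of each other.

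Of the 6 genes, Gstm5 gave the largest difference with dox under each Pcgf6 hairpin. On the log2 scale it measured 9.01 with dox and 8.26 without under hairpin 1, and 9.15 with dox and 8.25 without under hairpin 2. In scrambled cells it measured 8.02 with dox and 8.26 without. The 2 induced Pcgf6-hairpin arrays were therefore the highest of the 6, the 3 uninduced arrays lay between 8.25 and 8.26, and the induced scrambled array was the lowest. Hairpin 1 gave a change with dox of 0.75 (1.68-fold), hairpin 2 one of 0.91 (1.88-fold), and the scrambled line one of -0.24. Group means were 9.08 ± 0.10 with dox and 8.25 ± 0.01 without in Pcgf6-hairpin cells (SD, n = 2 each), a difference of 0.83 (moderated SE 0.09).

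Feeder signal differed between the lines. The mean level of 21 feeder fibroblast markers was 10.12 on both arrays of hairpin 1, 10.50 with dox and 10.02 without under hairpin 2, and 9.78 with dox and 9.21 without in scrambled cells. With dox, Gstm5 and the feeder mean were both higher under hairpin 2, Gstm5 alone was higher under hairpin 1, and the feeder mean alone was higher in scrambled cells. Over the 6 arrays their Pearson's r was 0.639, a description with no test. The r with the feeder mean was negative for the other genes: -0.91 for Gstm4, -0.88 for Gstm7, -0.82 for Gstm2, -0.54 for Gstm6 and -0.28 for Gstm1. With the feeder mean as a covariate the Gstm5 difference was 0.74 (SE 0.14), in a fit whose feeder adjustment rests on hairpin 1 against hairpin 2 alone. Pcgf6 itself, the targeted gene, averaged 9.33 ± 0.09 with dox and 11.63 ± 0.10 without in Pcgf6-hairpin cells (SD, n = 2 each), and measured 11.82 with dox and 11.80 without in scrambled cells.

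**Figure D1:**
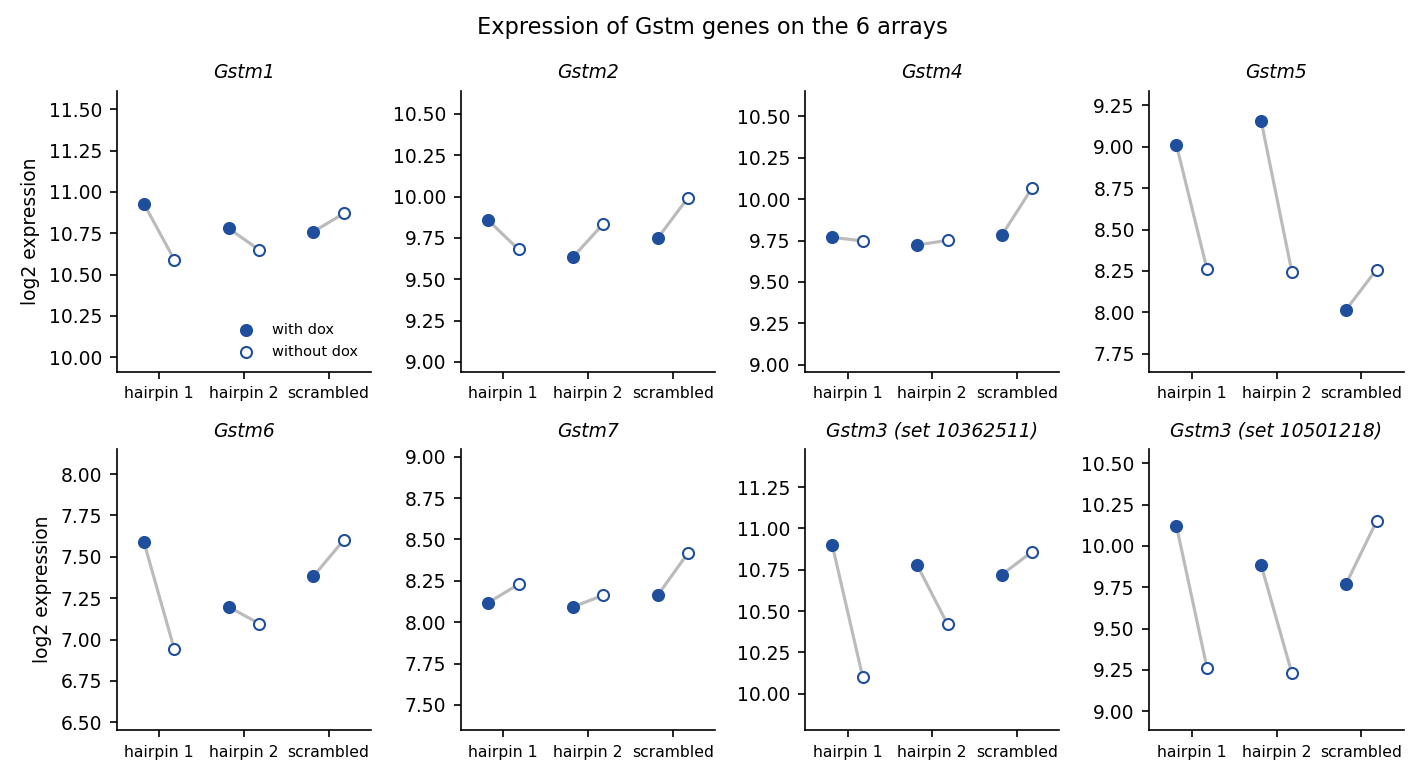
Level of the 6 genes and of both Gstm3 probe sets on the 6 arrays (log2 expression, 1 point per array; filled, with dox; open, without dox; lines join the arrays of one line; each panel spans the same range around its gene's mean). Gstm5 is highest on the 2 induced Pcgf6-hairpin arrays, at 9.01 and 9.15, and the 3 uninduced arrays lie between 8.25 and 8.26.

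Gstm6 and Gstm1 were also higher with dox under both Pcgf6 hairpins, by less, and unevenly between the hairpins. Gstm6, a less studied member, measured 7.59 with dox and 6.94 without under hairpin 1, 7.20 with dox and 7.10 without under hairpin 2, and 7.38 with dox and 7.60 without in scrambled cells. With hairpin 1 it changed by 0.65, with hairpin 2 by 0.10 and with the scrambled hairpin by -0.22, so that most of the difference rested on hairpin 1. The mean with dox was 7.40 ± 0.28 and the mean without was 7.02 ± 0.11 (SD, n = 2 each), a difference of 0.38 (SE 0.14) that was 0.64 (SE 0.14) with the feeder mean as a covariate. Both uninduced Pcgf6-hairpin arrays were the lowest of the 6 for Gstm6, and the uninduced scrambled array was the highest, just above the induced hairpin 1 array.

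Gstm1 measured 10.93 with dox and 10.59 without under hairpin 1, 10.78 with dox and 10.65 without under hairpin 2, and 10.76 with dox and 10.87 without in scrambled cells. The changes were 0.34, 0.12 and -0.10 in that order of lines. As with Gstm6, the 2 uninduced Pcgf6-hairpin arrays were the lowest, and the uninduced scrambled array lay between the induced arrays of hairpin 1 and hairpin 2. Within the Pcgf6-hairpin cells the mean of Gstm1 was 10.85 ± 0.11 with dox and 10.62 ± 0.05 without (SD, n = 2 each). The difference of 0.23 (SE 0.09) did not pass in limma (adjusted p = 0.566).

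Gstm3, like Gstm1 and Gstm6, was lowest on the 2 uninduced Pcgf6-hairpin arrays. It was read by 2 probe sets, of which 10362511 has the higher mean and entered the fit. In 10501218 it measured 10.12 with dox and 9.26 without under hairpin 1, 9.88 with dox and 9.23 without under hairpin 2, and 9.77 with dox and 10.15 without in scrambled cells. The changes of that set were 0.86, 0.65 and -0.38 for hairpin 1, hairpin 2 and scrambled, and those of 10362511 were 0.79, 0.36 and -0.14. Both sets gave the same direction in each line. Across both hairpins the set in the fit changed by 0.58 (SE 0.12), which did not pass in limma (adjusted p = 0.282).

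Gstm2, Gstm4 and Gstm7 differed with dox by at most 0.20 under either Pcgf6 hairpin. Gstm2 measured 9.86 with dox and 9.68 without under hairpin 1, 9.63 with dox and 9.84 without under hairpin 2, and 9.75 with dox and 9.99 without in scrambled cells, so that the 2 hairpins ran in opposite directions, by 0.18 and -0.20. Gstm4 stayed between 9.72 and 9.78 on 5 arrays, and the uninduced scrambled array stood above them at 10.07. Gstm4 changed by 0.02 with hairpin 1, by -0.03 with hairpin 2 and by -0.29 with the scrambled hairpin. Gstm7 measured 8.12 with dox and 8.23 without under hairpin 1, 8.09 with dox and 8.16 without under hairpin 2, and 8.16 with dox and 8.42 without in scrambled cells. It was lower with dox in all 3 lines, by 0.07 to 0.26.

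**Figure D2:**
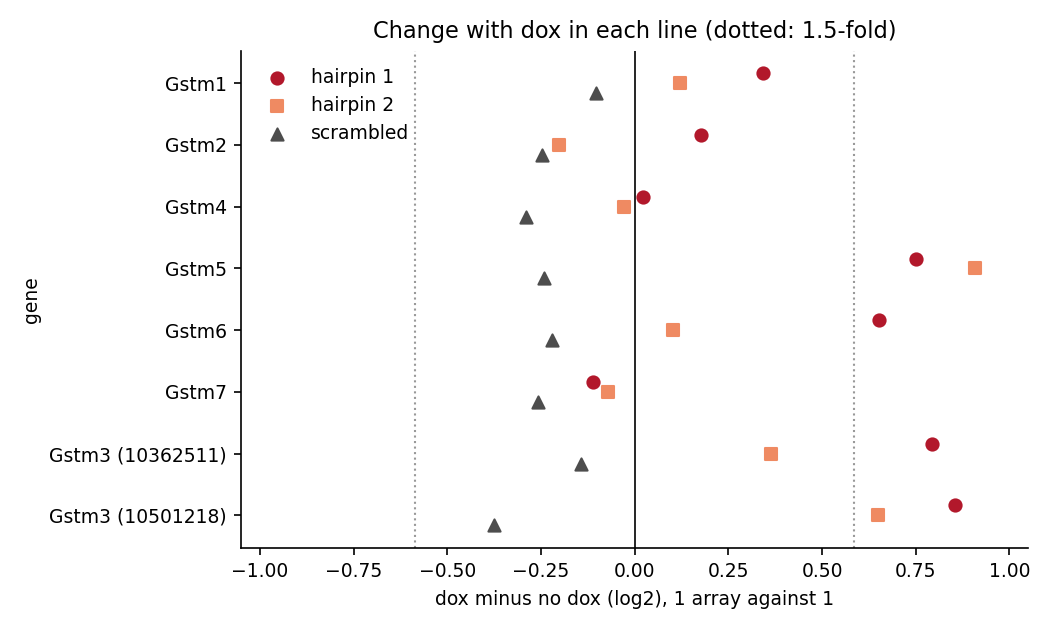
Change with dox in each line, as the induced minus the uninduced array (log2, 1 array against 1), for the 6 genes and both probe sets of Gstm3. Dotted lines mark 1.5-fold: Gstm5 lies beyond it under both hairpins at 0.75 and 0.91, Gstm6 under hairpin 1 at 0.65, and every scrambled point is below 0.

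At 1.5-fold or more, 2 of the 6 genes (Gstm5 and Gstm6) were higher with dox under hairpin 1, where 0.627% of all genes were, and 1 (Gstm5) under hairpin 2, where 2.17% of all genes were. In both hairpin lines together, 1 of 6 was, against 0.336% of all genes. None of the 6 was lower by that much under hairpin 1 (0.241% of all genes) or hairpin 2 (0.446%), and none was higher (1.48%) or lower (0.211%) in the scrambled line. These counts come from 1 array against 1. In limma, 1 of the 6 genes, Gstm5, was called for the change with dox in Pcgf6-hairpin cells, and 0.201% of all genes were called. The genes were chosen with this contrast known, so nothing is read from that share. Gstm5 was no longer called with the feeder mean as a covariate, with median centring, without the dimmest 50% of genes, over all probe sets, or with any 1 of the 4 Pcgf6-hairpin arrays left out.

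Set against the scrambled line, the dox change under the Pcgf6 hairpins was higher for each of the 6 genes, and for 10029 of all 19938 genes. The difference was 1.07 (SE 0.16) for Gstm5, 0.60 (SE 0.25) for Gstm6, 0.33 (SE 0.16) for Gstm1, 0.29 (SE 0.14) for Gstm4, 0.23 (SE 0.19) for Gstm2 and 0.17 (SE 0.15) for Gstm7. Their median was 0.31, against 0.00 over all genes. With the feeder mean as a covariate the differences were 1.19 (SE 0.22) for Gstm5, 0.25 (SE 0.22) for Gstm6, 0.19 (SE 0.22) for Gstm1, 0.25 (SE 0.22) for Gstm4, 0.02 (SE 0.23) for Gstm2 and 0.16 (SE 0.23) for Gstm7. Those of Gstm6, Gstm1 and Gstm2 were thus smaller by more than 1.5-fold with the covariate, and that of Gstm5 was not smaller. The feeder adjustment in that fit comes only from hairpin 1 against hairpin 2, because each scrambled group is 1 array. It cannot be told apart from a difference between the hairpins. The scrambled feeder means also lay below those of all Pcgf6-hairpin arrays. How far feeder RNA bears on these differences was not tested. All 6 differences use the same scrambled pair, which has no replicate. For Gstm2, Gstm4 and Gstm7 the mean change under the hairpins was -0.01, -0.003 and -0.09, so the sign of their differences rests on that pair. In limma 0 of the 6 were called, and 0.0702% of all genes were (14 genes, or 23 with the hairpin line as a replicate block). At an unadjusted p under 0.05, 1 of the 6, Gstm5, and 4.55% of all genes passed, from which nothing is read, since the genes were chosen with these values known.

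The scrambled line thus bears on every one of these differences. All 6 genes were lower there with dox, by 0.10 to 0.29, with a median of -0.24, and 53.4% of all genes were lower there. Gstm1, Gstm5 and Gstm6 combined a higher value with dox under both hairpins with a lower value in the scrambled line, a pattern singled out after the values were seen, which 11.4% of all genes shared. In the same pair the feeder mean was 9.78 with dox and 9.21 without, and 21 of 21 feeder markers were higher with dox.

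**Figure D3:**
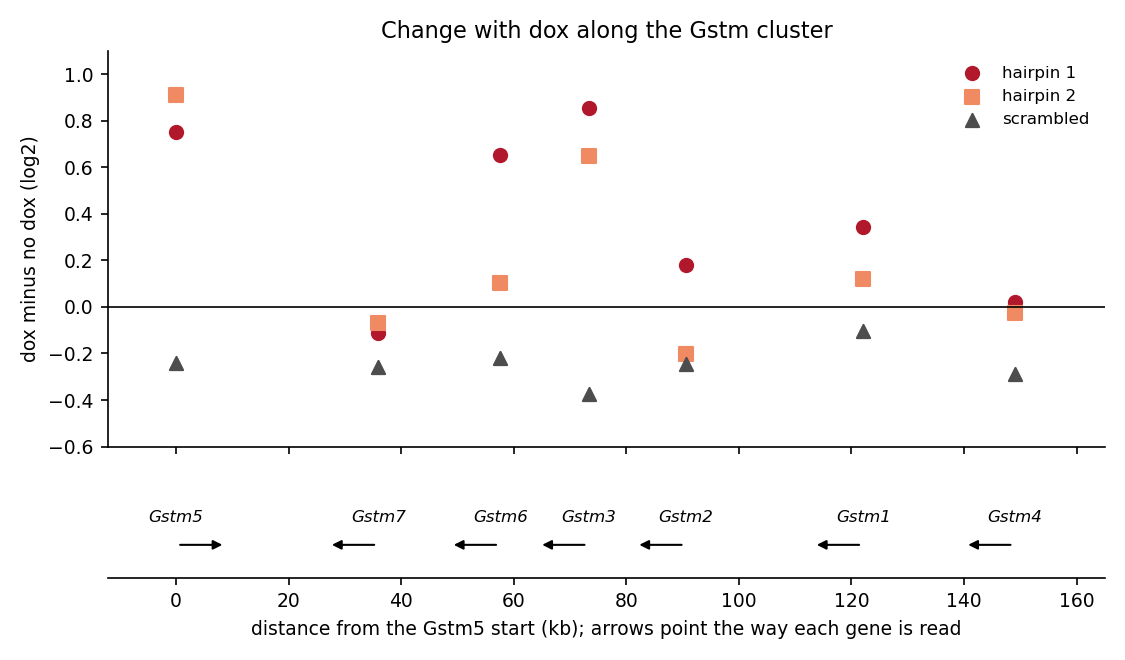
Change with dox (log2, 1 array against 1) by position of the gene's start in the cluster, as distance from the start of Gstm5; arrows give the reading direction, and Gstm3 is shown by probe set 10501218. Gstm7 at 36.0 kb and Gstm4 at 149.0 kb lie near or below 0, while Gstm5 at one end and Gstm3 inside the cluster lie above 0.6 under both hairpins; the other Gstm3 set, 10362511, gave 0.79 and 0.36.

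Before induction, 5 of the 6 genes were lower in both Pcgf6-hairpin lines than in the scrambled line, all against the same 1 scrambled array. The share of all genes lower in both lines was not counted. By the mean of the 2 hairpin lines, 6 of the 6 genes and 50.2% of all genes were lower. The difference of uninduced Pcgf6 hairpins from uninduced scrambled was -0.58 for Gstm6 (SE 0.18), -0.32 for Gstm4 (SE 0.10), -0.24 for Gstm1 (SE 0.12), -0.24 for Gstm2 (SE 0.14) and -0.22 for Gstm7 (SE 0.10). For Gstm5 it was -0.01 (SE 0.11), and its 3 uninduced arrays were the closest together of any of the 6 genes. Gstm3 differed by -0.60 (SE 0.15). These levels were known when the genes were chosen, so the differences are a description and not a test.

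In this comparison limma called 0 of the 6 genes and 0% of all genes, and 8.06% of all genes had an unadjusted p under 0.05. The feeder mean was 10.12 and 10.02 on the uninduced hairpin arrays and 9.21 on the uninduced scrambled array, and the mean of 12 stem cell markers was 11.81 and 11.84 against 11.93. The scrambled group was 1 array, so the fit borrows its spread from the Pcgf6-hairpin arrays.

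Of the 6 genes, Gstm5 and Gstm6 had an SD over the 6 arrays of at least 0.2. Genes most like these were sought by Pearson's r over the 6 arrays, as a description with no test. The search left out mu-class genes, predicted genes, RNA genes and odorant and pheromone receptors. For Gstm5 the most like were Tmem18 (r = 0.999), a transmembrane protein gene, Cryl1 (r = 0.996), which encodes a crystallin-related dehydrogenase, and Mael (r = 0.995), which acts in piRNA silencing of transposons in the germ line. With dox, Mael changed by 1.97 in hairpin 1 cells, by 1.99 in hairpin 2 cells and by -0.65 in scrambled cells. Tmem18 changed by 0.51, 0.64 and -0.12 in the same lines. Of the genes searched, 294 exceeded an r of 0.9 with Gstm5, so these 3 were not alone. For Gstm6 the most like were Hap1 (r = 0.993), Slco6b1 (r = 0.984) and Btk (r = 0.981), and 61 of the genes searched exceeded 0.9. Slco6b1 lay between 3.64 and 4.06 and Btk between 4.61 and 4.81, below the lower quartile of every array (5.50 or more). Hap1 spanned only 8.76 to 8.88. Under hairpin 1 they changed with dox by 0.11 for Hap1, 0.42 for Slco6b1 and 0.20 for Btk, and in the other lines by at most 0.05 either way.

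**Figure D4:**
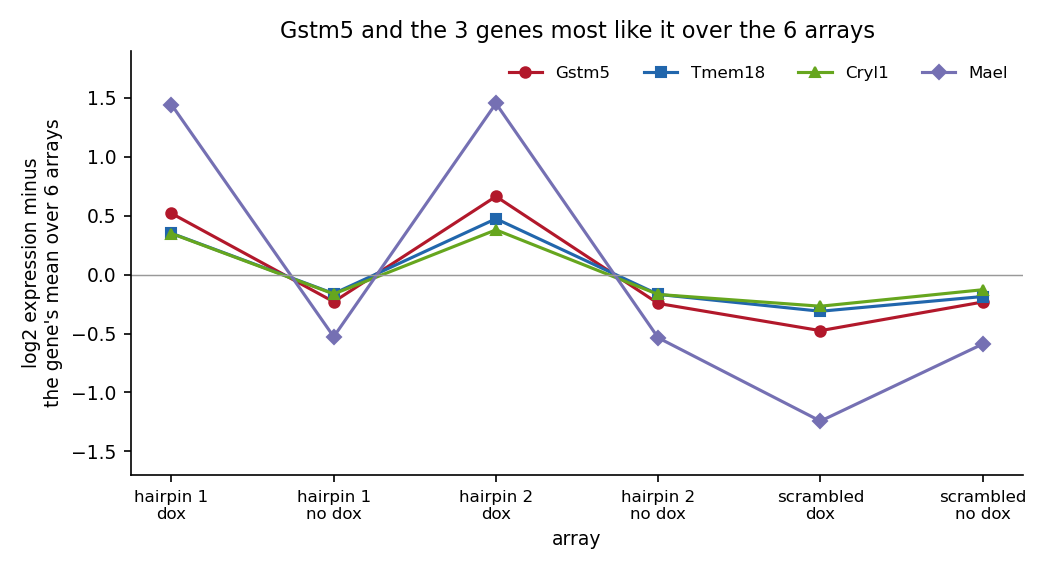
Levels of Gstm5 and of the 3 genes with the highest Pearson's r to it, each minus its mean over the 6 arrays (log2, 1 point per array). All 4 profiles are highest on the induced Pcgf6-hairpin arrays and lowest on the induced scrambled array; Mael spans the widest range.

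Other genes of glutathione metabolism were read from lists drawn up from general knowledge. Of the other glutathione transferase classes 16 of 19 genes had a probe set of their own. In the Pcgf6-hairpin cells limma called 0 of them as higher and 0 as lower with dox, and 0.201% of all genes. Gstz1, the zeta-class enzyme of tyrosine breakdown, changed by 0.45 in hairpin 1 cells, by 0.57 in hairpin 2 cells and by -0.14 in scrambled cells (adjusted p = 0.195). Mgst1, a membrane-bound microsomal enzyme, measured 0.10, 0.46 and 0.72, and the theta-class gene Gstt2 measured -0.47, -0.34 and -0.33. In the same order of lines the medians of these classes were 0.09, 0.03 and -0.09, against 0.26, 0.04 and -0.24 for the 6 mu-class genes and 0.00, -0.02 and -0.01 for all genes.

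Of 15 measured genes of glutathione synthesis, recycling and breakdown, limma called 0 as higher and 0 as lower with dox in Pcgf6-hairpin cells. It called 0.201% of all genes there, so little can be read from 0 calls in a short list. Glrx, which encodes glutaredoxin, measured 0.57, 0.40 and 0.52 with dox in the hairpin 1, hairpin 2 and scrambled lines. Slc7a11, the cystine transporter that feeds glutathione synthesis, measured 0.28, 0.93 and -0.07, and the exporter gene Abcc1 measured 0.01, 0.47 and 0.26. Of 8 measured glutathione peroxidase genes limma called none for that change either. Gpx8 measured 0.12, 0.38 and 0.66, Gpx3 -0.09, 0.39 and 0.60, and Gpx6 0.80, 0.47 and -0.58.

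Of 17 measured NRF2 pathway genes, limma called 0 for the change in Pcgf6-hairpin cells, against 0.201% of all genes. The lowest adjusted p was 0.727. Srxn1, the sulfiredoxin gene, measured 0.04, 0.30 and 0.24 in the hairpin 1, hairpin 2 and scrambled lines, Me1, the malic enzyme gene, -0.02, 0.30 and 0.26, and Maff 0.02, 0.46 and 0.04. The medians of this list were -0.02, 0.05 and -0.04. None of the 4 lists had a member called in the difference from scrambled, where 0.0702% of all genes were called. The feeder markers had medians of -0.01, 0.50 and 0.59, with 9, 21 and 21 of 21 above 0, and the stem cell markers had medians of 0.00, -0.12 and -0.08, with 6, 1 and 3 of 12 above 0. Of the feeder markers Prrx1 measured 0.10, 0.42 and 1.12, Lox 0.03, 0.74 and 0.61 and Cdh11 0.08, 0.50 and 0.72. Of the stem cell markers Dppa4 measured -0.42, -0.48 and -0.33, Klf4 0.16, 0.29 and 0.00 and Zfp42 -0.04, -0.19 and -0.22.

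**Figure D5:**
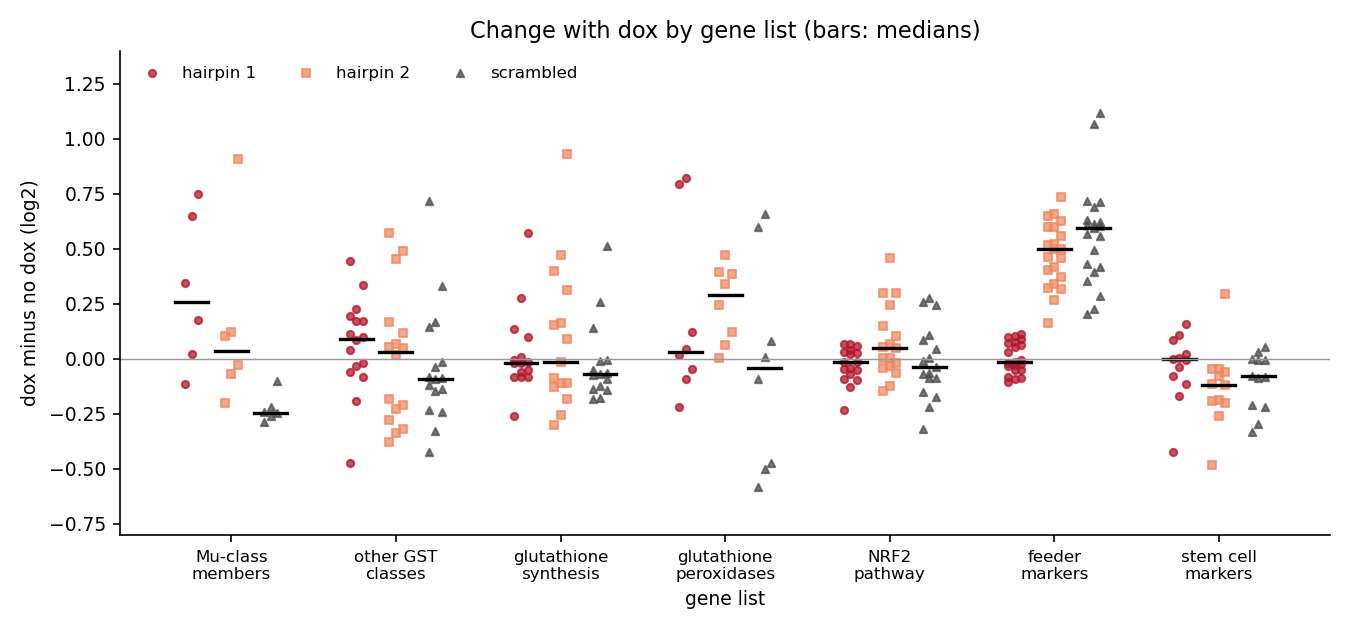
Change with dox (log2, 1 array against 1) of each measured gene by list and line, with the median as a bar. The mu-class medians are 0.26, 0.04 and -0.24, and the feeder medians are -0.01, 0.50 and 0.59.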

How the data were processed

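The deposited values are log2 expression from Mouse Gene 1.0 ST arrays. The submitters' processing notes name RMA in Affymetrix Power Tools; the version, options and genome build are not given in the sources used here. RMA brings arrays to a common distribution, which removes a change shared by most genes, and levels of different probe sets are not comparable. Array medians lay between 7.02 and 7.08, correlations between 0.991 and 0.996, and at most 0.0984% of values were identical between arrays. The number of arrays limits the precision.

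Of 35556 probe sets, 21789 listed 1 symbol, 1621 several and 12146 none. Symbols were updated by Entrez identifier (21698 found in RefSeq GRCm38.p6). For the 999 genes with several, the set of highest mean level stood for the gene. With no filter on level, limma 3.58.1 in R 4.3.3 fitted 4 group means to 19938 genes (2 residual and 4.44 prior degrees of freedom), two-sided, with Benjamini-Hochberg adjustment over all genes and a threshold of 0.05. SE are moderated standard errors. P-values rest on the spread among these arrays alone. That spread lies between hairpin 1 and hairpin 2 within each Pcgf6-hairpin group, since single scrambled arrays add none. It holds any difference between the hairpins together with technical spread, and does not measure replicate cultures of a line. The script was tested on simulated data.

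The genes, lists and tests were chosen with earlier results of these data known. Genes named were the mu-class genes, Pcgf6, the 3 of each list with the largest absolute mean change over the 3 lines, and the 3 most like a member (SD at least 0.2; leaving out predicted genes, RNA genes and odorant and pheromone receptors). Both arrays of a line carry the same hairpin, which pairs them; their deviations from group means correlated at 0.182 across genes. Alternatives were another gene summary, all probe sets, requantiling, centring, filters on dim genes, a trended prior, the feeder mean as a covariate, the line as a replicate block leaving out arrays, and, added after seeing the data, a fit on the 4 Pcgf6-hairpin arrays alone. Protein sequences were not used here.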

Additional observations from a re-analysis of the deposited data

Results flagged for a closer look

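For 4 genes the dox change ran one way in both Pcgf6-hairpin lines and the other way in the scrambled line. The dox change under the Pcgf6 hairpins minus that of scrambled was 1.07 for Gstm5, 0.72 for Gstm3 (probe set 10362511), 0.60 for Gstm6 and 0.33 for Gstm1. In limma this difference was called for none of them, and the scrambled line has 1 pair of arrays. Groups of 1 or 2 arrays are too small for a check of single outlying arrays.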

How the results depend on the processing

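The change of Gstm5 with dox in Pcgf6-hairpin cells stayed between 0.74 and 0.90 over 14 alternatives and was called in 6 of them. Of these 6, the fit on the 4 Pcgf6-hairpin arrays alone is no separate check. It had to repeat the main fit, because single scrambled arrays add no spread. The number of mu-class genes called was 1 (Gstm5) as reported, and 0 over all probe sets, with median centring, without the dimmest 50% of genes (a filter that Gstm6 did not pass), with the feeder mean as a covariate, and with any 1 of the 4 Pcgf6-hairpin arrays left out. Of all genes, 40 were called for that change, against 7 without the dimmest 50%, 62 with an intensity trend, 22 with the feeder covariate and 14 to 26 with 1 array left out. For the difference from scrambled 14 genes were called, against 0 over all probe sets, 4 with median centring, 9 and 4 without the dimmest 25% and 50%, 3 with the feeder covariate, 23 with the hairpin line as a replicate block and 0 to 4 with 1 array left out; the block changed no call of a mu-class gene. Counted per gene and line, 3 changes with dox passed 1.5-fold: Gstm5 under both Pcgf6 hairpins and Gstm6 under hairpin 1. Of all genes, 0.627% were higher by that much under hairpin 1 and 2.17% under hairpin 2. At 2-fold 0 changes of the 6 genes passed, and the share of all genes was not counted. For Gstm5, Pcgf6-hairpin cells differed from scrambled by 0.53 over all 6 arrays with dox as a term, a fit that averages in the induced arrays and so is no uninduced difference; the uninduced difference lay between -0.012 and 0.0017 with 1 array left out. The cause of the other changes was not tested. With 1 or 2 arrays a group, precision is limited by their number.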

Other observations

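Among the other glutathione genes, 2 glutathione peroxidase genes and the transferase gene Gsto2, picked after their values were seen, resembled Gstm5 in part. Gpx2, known from the gut epithelium, measured 9.31 with dox and 8.49 without under hairpin 1, 9.19 with dox and 8.85 without under hairpin 2, and 8.29 with dox and 8.79 without in scrambled cells. Gpx6 measured 8.22 with dox and 7.42 without under hairpin 1, 7.99 with dox and 7.52 without under hairpin 2, and 6.96 with dox and 7.54 without in scrambled cells. Gsto2 measured 6.97 with dox and 6.93 without under hairpin 1, 7.25 with dox and 6.76 without under hairpin 2, and 6.65 with dox and 6.74 without in scrambled cells. For Gpx2, Gpx6 and Gsto2 the induced Pcgf6-hairpin arrays were the highest and the induced scrambled array was the lowest, as for Gstm5. The top array was that of hairpin 1 for Gpx2 and Gpx6 and that of hairpin 2 for Gsto2 and Gstm5. The share of all genes with this order was not counted. A looser pattern, higher with dox under both hairpins and lower in the scrambled line, was found in 11.4% of all genes. Gstp1, the pi-class transferase, changed by 0.33, 0.17 and -0.24 in the hairpin 1, hairpin 2 and scrambled lines. Gpx2, Gpx6, Gsto2 and Gstp1 did not pass in limma.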
